A study of Mus musculus with 4 samples.

Results

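The genes described here encode the machinery that moves membrane and cargo inside cells. They are the small GTPases of the Rab, Arf, Arl and Sar1 families, the vesicle coats, tethers and SNARE proteins between endoplasmic reticulum, Golgi and plasma membrane, and the adaptors and sorting proteins of endosomes. They were chosen by symbol (Rab, Rabep, Rabac, Arf, Arl, Sar1, Sec, Cop, Vps, Snx, Exoc, Trappc, Gdi, Gosr, Bet1, Ykt6, Vti1, Golg and Esyt genes and the beta, gamma, medium and small subunits of the adaptor complexes AP-1, AP-3 and AP-4), with a value on at least 3 of the 4 arrays. Of 94 symbols that matched, 5 that begin with Rab3 were left out (Rab3a, Rab3d, Rab33a, Rab33b and Rab37), and Rab27a and Snx3 had no value on any array. The remaining 87 genes, each with 1 spot, were among 5140 genes with 5828 spots that had as many values. By known function, 35 were placed in constitutive secretion, 36 in endosomal sorting and 16 in neither arm.

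Gene expression in the neocortex of C57BL/6 mouse embryos was compared at embryonic day 16 between null mutants, called synaptically silent in the labels, and normal controls. The series title names genes regulated by synaptic activity as the question. Total RNA of 4 null samples, labelled as separate biological replicates, was hybridised array by array against a pool of RNA from 4 controls, so that the pool counts as 1 control sample. Null RNA carried the dye Cy3 on replicate 1 and Cy5 on replicates 2, 3 and 4. The source name of replicate 1 states day 14, while its title and characteristics state day 16.

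Each value is the deposited log ratio of both channels of an array. The base of the logarithm was not stated and was assumed to be 2, so the fold sizes below rest on that assumption. Which channel was the numerator is not given in the sources used here, and signs are therefore printed as deposited, without a direction between null mutants and controls. Replicates 2 to 4 share a dye orientation and gave the tests, in which limma compared the mean log ratio of each spot with 0. Such a test leaves out the spread between controls, and within these 3 arrays dye and genotype cannot be told apart. Ratios give no level of a gene, and a smaller number of cells of a type cannot be told apart from less RNA per cell. For the same reason the labelled tissue could not be checked by the levels of its marker genes.

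Rab and Arf proteins switch between a GTP-bound and a GDP-bound state, and in the GTP state they recruit coats, tethers and motors to a membrane. New secretory and membrane proteins enter the endoplasmic reticulum through the Sec61 channel, leave it in COPII vesicles, are sorted in the Golgi with the help of COPI vesicles and golgins, and reach the cell surface by way of Rab carriers and the exocyst. Endocytosed proteins pass through early endosomes, from which retromer and recycling Rabs return them and late endosomes carry them to lysosomes. In the growing neurons of the embryonic neocortex these routes supply membrane and receptors to axons and dendrites.

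No trafficking gene passed the adjusted threshold, and the genes showed a smaller share of low p values than the array as a whole. With limma, 0 of the 86 genes measured on replicates 2 to 4 had an adjusted p under 0.05, as did 0% of all 5720 probes tested. At an unadjusted p under 0.05 stood 4 genes, which is 4.65% of them, against 9.67% of all probes. The positive one was Vps29 (1.16% of the genes, against 5.61% of all probes), and the 3 negative ones were Esyt1, Rab17 and Ap4m1 (3.49% against 4.06%). On replicates 2 to 4 alike, 28 genes kept their sign, or 32.6%, with 15 positive and 13 negative, against 33.5% of all probes. The share at an unadjusted p under 0.05 and its positive part were below those of all probes. Its negative part and the share with a single sign were near those of all probes. Without replicate 4 the count at an unadjusted p under 0.05 was 8, with 10.9% of all probes, and with a weight for each array it was 13, with 18.7% of all probes.

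**Figure D1:**
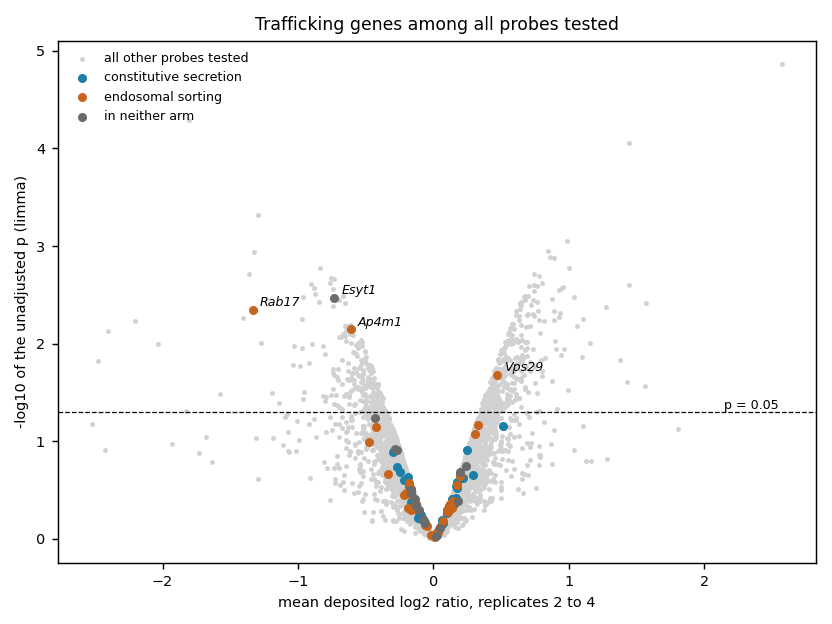
Mean deposited log2 ratio of replicates 2 to 4 (horizontal axis) against the negative log10 of the unadjusted p from limma (vertical axis) for all 5720 probes tested, with the 86 trafficking genes coloured by arm. Above the dashed line, drawn at the unadjusted limit, lie Esyt1, Rab17 and Ap4m1 on the negative side and Vps29 on the positive side, which leaves 82 of the coloured points below it.

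The trafficking genes lay close to 0 and varied less between arrays than probes in general. The median of their mean log ratios was 0.015, against -0.016 for all probes tested, with 45 genes positive (52.3%, against 47.4% of all probes) and 41 negative. The median size of the mean log ratio, without its sign, was 0.149 for the genes and 0.167 for all probes, and the median SD between arrays was 0.210 and 0.268. A mean beyond 0.5 in size was seen for 4 genes, or 4.65%, against 8.72% of all probes. These 4 were Rab17, Esyt1, Ap4m1 and Golga3. The 95% interval of the median gene reached 0.382 to either side of its mean.

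Replicate 3 stood apart from the others among these genes. Their median log ratio was 0.070 (replicate 1, as deposited), 0.033 (replicate 2), -0.12 (replicate 3) and 0.041 (replicate 4). On replicate 3, 54 of 87 genes were negative, or 62.1%, against 50.3% of all probes of that array. The SD over the genes was 0.45 on replicate 3 and lay between 0.23 and 0.35 on the others, and over all probes it was 0.63 on replicate 3 and between 0.40 and 0.48 on the others. Of the 86 genes, 47 had their lowest value of replicates 2 to 4 on replicate 3, or 54.7%, against 38.6% of all probes. Between 5777 and 5873 probes had a value on each array.

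**Figure D2:**
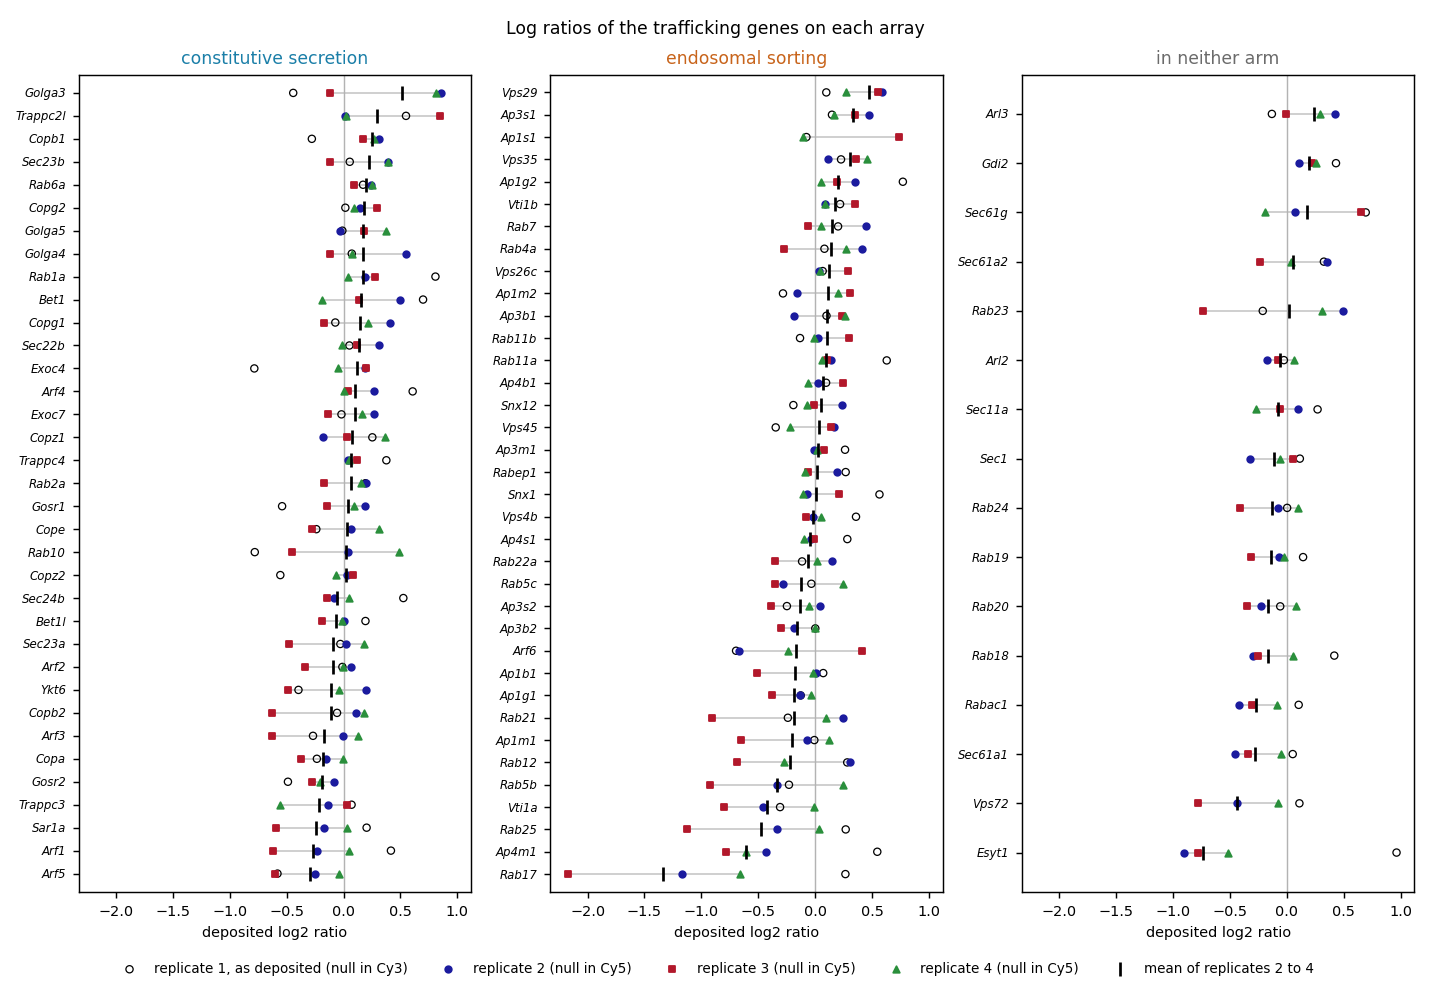
Deposited log2 ratio (horizontal axis) of each of the 87 trafficking genes on every array, in 3 panels for constitutive secretion, endosomal sorting and genes in neither arm, sorted by the mean of replicates 2 to 4 (black tick). Open circles are replicate 1 as deposited, the grey line spans replicates 2 to 4, and Ap1s1, which has no value on replicate 2, has no tick. Rab17 lies furthest to the left, at -2.17 on replicate 3, and the red squares of replicate 3 often form the left end of a line.

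The 4 genes at an unadjusted p under 0.05 belong to different steps of trafficking. Esyt1 encodes extended synaptotagmin 1, which tethers the endoplasmic reticulum to the plasma membrane and transfers lipids there. Rab17 encodes a GTPase of recycling endosomes that is best known from polarised epithelia. Ap4m1 encodes the medium subunit of AP-4, an adaptor that exports cargo such as the autophagy protein ATG9A from the trans-Golgi network. Vps29 encodes a subunit shared by retromer and retriever, complexes that return receptors from endosomes. The 300 bases around the start of these genes are printed because they are the genes furthest from 0 relative to their error. The sequences are RefSeq promoters of GRCm38.p6, 250 bases before to 50 after the start, with the GC box GGGCGG, on either strand, in capitals.
Esyt1 promoter (minus strand, chr10:128525810-128526109): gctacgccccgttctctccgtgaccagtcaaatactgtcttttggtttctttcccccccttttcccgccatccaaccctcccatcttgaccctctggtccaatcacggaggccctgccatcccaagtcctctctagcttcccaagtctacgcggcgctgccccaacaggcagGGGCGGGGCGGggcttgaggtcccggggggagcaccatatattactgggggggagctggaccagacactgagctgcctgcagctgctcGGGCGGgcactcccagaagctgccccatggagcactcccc
Rab17 promoter (minus strand, chr1:90967618-90967917): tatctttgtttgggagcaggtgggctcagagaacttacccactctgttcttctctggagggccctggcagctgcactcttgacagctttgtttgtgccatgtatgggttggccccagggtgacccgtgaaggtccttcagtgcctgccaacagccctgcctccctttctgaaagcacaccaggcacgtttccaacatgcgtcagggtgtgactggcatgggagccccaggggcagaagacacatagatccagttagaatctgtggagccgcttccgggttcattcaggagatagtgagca
Ap4m1 promoter (plus strand, chr5:138171771-138172070): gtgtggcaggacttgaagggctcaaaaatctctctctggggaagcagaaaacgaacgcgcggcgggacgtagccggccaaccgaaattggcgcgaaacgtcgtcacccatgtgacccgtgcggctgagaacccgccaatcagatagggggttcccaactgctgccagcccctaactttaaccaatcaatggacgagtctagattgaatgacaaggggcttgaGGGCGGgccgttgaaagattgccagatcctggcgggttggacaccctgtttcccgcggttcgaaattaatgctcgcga
Vps29 promoter (plus strand, chr5:122354078-122354377): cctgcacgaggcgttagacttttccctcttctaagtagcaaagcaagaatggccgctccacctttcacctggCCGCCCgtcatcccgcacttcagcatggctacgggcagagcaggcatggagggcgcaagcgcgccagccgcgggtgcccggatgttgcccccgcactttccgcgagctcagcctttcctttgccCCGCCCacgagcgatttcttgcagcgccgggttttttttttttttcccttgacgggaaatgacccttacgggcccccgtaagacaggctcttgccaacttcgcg

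GC boxes, the letters to which Sp1-type factors bind, stand in the windows of Esyt1, Ap4m1 and Vps29, and Rab17 has none of these letters. RefSeq promoters matched 75 of the 87 genes by symbol, with 83 promoters in all. The GC box was in 72.3% of these, against 57.7% of the promoters of the genes tested and 35.7% of all 32851 promoters of the table. The E-box CACGTG was in 10 of the 83 trafficking promoters, against 9.15% and 7.15% of the other sets. The cyclic AMP response element TGACGTCA, the letters to which the activity-regulated factor CREB binds, was in 3 of the 83 (3.61%), against 2.35% and 1.79%. Its 3 genes were Cope, Gosr2 and Rab25, whose mean log ratios on replicates 2 to 4 were 0.032, -0.19 and -0.48. Both strands were searched, overlapping matches counted once per promoter, and the promoters of a gene share sequence. These matches describe letters in a window and are no evidence of binding.

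Esyt1 had log ratios of -0.91, -0.78 and -0.51 on replicates 2, 3 and 4 and of 0.97 on replicate 1 as deposited. All 3 arrays with null RNA in Cy5 were thus negative, and the array with swapped dyes was positive. Its mean was -0.73 ± 0.20 (SD, n = 3), a 1.66-fold difference in size, with a 95% interval from -1.11 to -0.36. The unadjusted p from limma was 0.00338 and the adjusted p 0.450. With replicate 1 added as deposited the mean was -0.31 and the unadjusted p from limma 0.337. With replicate 1 turned, as a fixed numerator channel would require, the mean was -0.79 and the unadjusted p from limma 0.000624.

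Rab17 had -1.17, -2.17 and -0.66 on replicates 2, 3 and 4, and 0.27 on replicate 1 as deposited. Its mean of -1.34 ± 0.77 (SD, n = 3), 2.52-fold in size, was the furthest from 0 among the trafficking genes, and its range of 1.51 was the widest. The interval ran from -2.07 to -0.60, and limma gave an unadjusted p of 0.00448 and an adjusted p of 0.454. With replicate 1 added as deposited the mean was -0.93 and the unadjusted p from limma 0.0291, and with it turned they were -1.07 and 0.0101. Rab25, a Rab11 relative that is likewise best known from epithelia, had -0.33, -1.13 and 0.035, with 0.27 on replicate 1. Both genes were lowest on replicate 3 and positive on replicate 1. Beside them, 10 genes typical of epithelia, a list chosen after values had been seen, had 5 positive and 5 negative means with a median of -0.015. That list holds Ap1m2, the AP-1 medium subunit of epithelial cells, which had a mean of 0.11 ± 0.24 (SD, n = 3). The part of other cell types in the values of Rab17 was not tested.

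Ap4m1 had -0.43, -0.79 and -0.61 on replicates 2, 3 and 4, and 0.55 on replicate 1 as deposited. As for Esyt1, the sign differed between dye orientations. The mean was -0.61 ± 0.18 (SD, n = 3), 1.53-fold in size, with an interval from -0.98 to -0.24, an unadjusted p from limma of 0.00712 and an adjusted p of 0.454. With replicate 1 added as deposited the mean was -0.32 and the unadjusted p from limma 0.196, and with it turned they were -0.59 and 0.00212. The other 2 AP-4 subunits tested had means near 0, with Ap4b1, the large beta subunit, at 0.067 ± 0.16 and Ap4s1, the small subunit, at -0.047 ± 0.047 (SD, n = 3 each).

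Vps29 had 0.59, 0.56 and 0.27 on replicates 2, 3 and 4, and 0.098 on replicate 1 as deposited. It was positive on every array as deposited, and lower on replicates 1 and 4 than on the other two. The mean was 0.47 ± 0.18 (SD, n = 3), 1.39-fold in size, with an interval from 0.10 to 0.84, an unadjusted p from limma of 0.0209 and an adjusted p of 0.473. Without replicate 2 the mean was 0.41 with an unadjusted p from limma of 0.140, and without replicate 3 it was 0.43 with 0.0539. With replicate 1 added as deposited the mean was 0.38 and the unadjusted p from limma 0.0323, and with it turned they were 0.33 and 0.0733.

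Constitutive secretion and endosomal sorting lay close together, with a difference whose sign changed between arrays. The 35 secretion genes had a median mean log ratio of 0.062, and the 35 endosomal genes tested had 0.010, a difference of 0.052. By array, the difference was -0.11 (replicate 1, as deposited), 0.045 (replicate 2), -0.069 (replicate 3) and 0.033 (replicate 4). Its SD over replicates 2 to 4 was 0.063. The difference was -0.0085 without replicate 4 and 0.099 without replicate 3, and it was 0.10 with the arrays on a common scale or with means in place of medians, so that some settings exceeded that SD. No secretion gene reached an unadjusted p under 0.05 in limma, and 3 endosomal genes did, Rab17, Ap4m1 and Vps29 (8.57%), a share near the 9.67% of all probes. Secretion genes spread from -0.30 to 0.52 with 22 positive and 13 negative, and endosomal genes from -1.34 to 0.47 with 18 positive and 17 negative. A single sign on replicates 2 to 4 was seen for 10 secretion genes (28.6%) and 12 endosomal genes (34.3%), near the 33.5% of all probes. No test of this difference was made, since the arms were drawn with earlier results known.

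**Figure D3:**
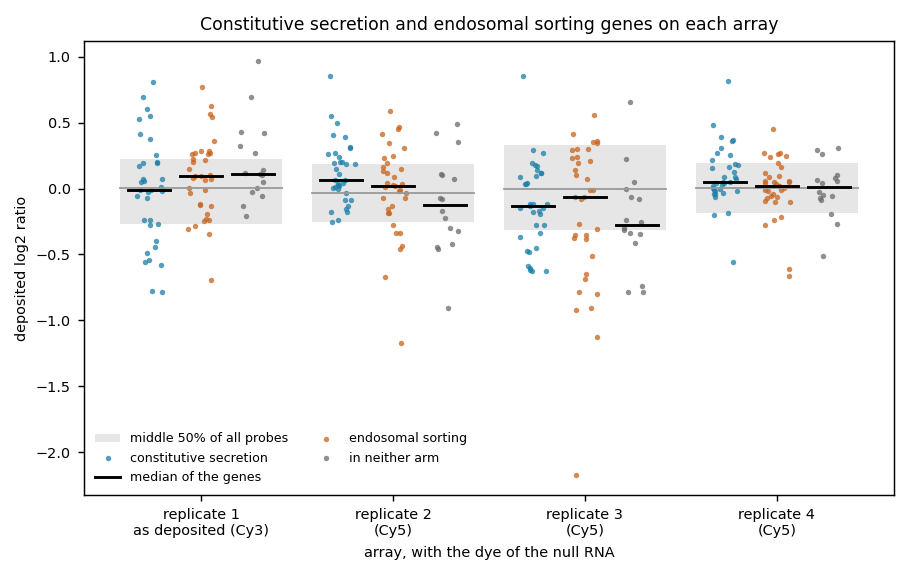
Deposited log2 ratio (vertical axis) of the 86 tested trafficking genes on each array (horizontal axis, with the dye of the null RNA), coloured by arm, with the median of each arm as a black bar and the middle 50% of all probes in grey. The medians of constitutive secretion and endosomal sorting are 0.067 and 0.022 on replicate 2, -0.13 and -0.064 on replicate 3, and 0.051 and 0.018 on replicate 4, all inside the grey band.

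In constitutive secretion, the genes of exit from the endoplasmic reticulum lay on both sides of 0. Of the 4 genes of COPII, the coat that buds from the endoplasmic reticulum, 1 was positive and 3 were negative, with a median of -0.075. Sar1a, the GTPase that starts this coat, had -0.18, -0.59 and 0.027 on replicates 2, 3 and 4, with 0.20 on replicate 1. Its inner coat partners Sec23b and Sec23a had means of 0.22 ± 0.29 and -0.091 ± 0.34, and the cargo-binding Sec24b had -0.060 ± 0.10 (SD, n = 3 each). On replicate 3 all 4 were negative, and on replicate 4 all 4 were positive.

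COPI carries proteins back from the Golgi, and Arf GTPases recruit it. Of its 8 subunits 6 were positive, with a median of 0.052, whereas 4 of the 5 Arf genes of the Golgi were negative, with a median of -0.17. Copb1, the beta subunit, had 0.31, 0.17 and 0.27 on replicates 2, 3 and 4, with -0.28 on replicate 1. Its mean of 0.25 ± 0.071 (SD, n = 3) had an unadjusted p from limma of 0.122. Copg2, a gamma subunit, was also positive on these arrays, at a mean of 0.18 ± 0.11, and Copa, the alpha subunit, was negative, at -0.18 ± 0.18. Arf5 had -0.25, -0.60 and -0.036, with -0.58 on replicate 1, and Arf1 had -0.24, -0.62 and 0.045, with 0.42 on replicate 1. The negative Arf values were largest in size on replicate 3, where the median of the 5 genes was -0.60, against -0.0057 on replicate 2 and 0.0067 on replicate 4.

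Golgi tethers catch incoming vesicles, and 5 of 6 were positive, with a median of 0.17. Golga3, the golgin-160 of the Golgi surface, had 0.85, -0.12 and 0.81 on replicates 2, 3 and 4, with -0.44 on replicate 1. Its mean of 0.52 ± 0.55 (SD, n = 3) was the highest of all trafficking genes, with an unadjusted p from limma of 0.0701, and replicate 3 lay on the other side of 0. Trappc2l, of the TRAPP tethering complex, had 0.010, 0.85 and 0.020, so that replicate 3 alone carried its mean of 0.29. Trappc3, a core subunit of that complex, was the negative one, at -0.22 ± 0.30, and Golga5, golgin-84, had 0.17 ± 0.20.

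The SNAREs of this route, which fuse vesicles between endoplasmic reticulum and Golgi, had 3 positive and 3 negative means and a median of -0.012. Gosr2 was negative on every array as deposited, at -0.086, -0.28 and -0.20 on replicates 2 to 4 and -0.49 on replicate 1. Sec22b, Bet1 and Ykt6 had means of 0.14 ± 0.16, 0.15 ± 0.34 and -0.11 ± 0.35 (SD, n = 3 each). All 4 Rab genes of this arm had a positive mean, with a median of 0.11. Rab6a, a Golgi GTPase, had 0.24, 0.093 and 0.25, with 0.17 on replicate 1, and Rab1a, which directs vesicles to the Golgi, had 0.19, 0.27 and 0.042, with 0.81 on replicate 1. Both were positive on every array as deposited, whereas Rab10, of carriers to the plasma membrane, ranged from -0.45 on replicate 3 to 0.48 on replicate 4. Exoc4 and Exoc7, of the exocyst that docks vesicles at the plasma membrane, had means of 0.11 ± 0.14 and 0.10 ± 0.21.

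In endosomal sorting, the GTPases had more negative than positive means and the Vps proteins more positive than negative ones. Of 12 endosomal GTPases, 4 were positive and 8 negative, with a median of -0.15. That balance went with replicate 3, where 3 of 12 were positive with a median of -0.35, whereas 7 of 12 were positive on replicate 2 (median 0.081) and 8 of 12 on replicate 4 (median 0.043). Rab5b, a GTPase of early endosomes, had -0.34, -0.92 and 0.25 on replicates 2, 3 and 4, and Rab21, which acts in integrin traffic, had 0.24, -0.90 and 0.095. In both genes replicate 3 was far below replicates 2 and 4. Arf6, which links the plasma membrane to recycling endosomes, had -0.67, 0.42 and -0.24, with replicate 3 the only positive value. Rab12 had -0.22 ± 0.50, and the recycling GTPases Rab11a, Rab11b and Rab4a had 0.098 ± 0.040, 0.10 ± 0.17 and 0.14 ± 0.36 (SD, n = 3 each). Rab7, the GTPase of late endosomes, had 0.15 ± 0.27.

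The widest ranges between arrays among these GTPases went with low values on replicate 3. Of the 20 Rab genes tested, replicate 2 had 12 positive, replicate 3 had 4 and replicate 4 had 16, while replicate 1 as deposited had 12. Their medians were 0.088, -0.35 and 0.070 on replicates 2, 3 and 4. Over all probes, 49.7% were positive on replicate 3 and 50.9% on replicate 4. A range above 1 across replicates 2 to 4 was seen for 6 trafficking genes, or 6.98%, against 14.7% of all probes. They were Rab17, Rab23, Rab5b, Rab25, Rab21 and Arf6, and replicate 3 was the lowest array in 5 of them.

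Of the Vps proteins, 4 of 5 were positive, with a median of 0.12. Vps35, the core subunit of retromer, had 0.12, 0.36 and 0.45 on replicates 2, 3 and 4, with 0.23 on replicate 1. Its mean of 0.31 ± 0.17 (SD, n = 3) had a 95% interval from -0.059 to 0.68 and an unadjusted p from limma of 0.0850. Vps26c, of retriever, had 0.035, 0.29 and 0.039, with 0.066 on replicate 1. Like Vps29, both were positive on all 4 arrays as deposited, and neither reached an unadjusted p under 0.05. Vps45, which assists SNAREs of early endosomes, had 0.030 ± 0.22, and Vps4b, the ATPase that takes the ESCRT coat apart, had -0.015 ± 0.066. The sorting nexins Snx1 and Snx12, which bend endosomal membranes or bind their lipids, had 0.010 ± 0.17 and 0.049 ± 0.16.

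The 13 tested subunits of AP-1, AP-3 and AP-4, adaptors that pick cargo at the trans-Golgi network and endosomes, had 6 positive and 7 negative means and a median of -0.047. After Ap4m1, the smallest p belonged to Ap3s1, the small subunit of AP-3, which sorts cargo to lysosomes and related organelles. It had 0.47, 0.35 and 0.17 on replicates 2, 3 and 4, with 0.15 on replicate 1, and a mean of 0.33 ± 0.15 (SD, n = 3) with an unadjusted p from limma of 0.0678. It was positive on all 4 arrays as deposited. Ap3b2, the neuronal beta subunit of AP-3, had -0.16 ± 0.15. The gamma subunits of AP-1 lay on opposite sides, with Ap1g2 at 0.20 ± 0.15 and Ap1g1 at -0.18 ± 0.17. Ap1s1, a small AP-1 subunit, lacked a value on replicate 2 and was not tested. Its values were 0.74 (replicate 3), -0.11 (replicate 4) and -0.077 (replicate 1).

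The endosomal SNAREs Vti1a and Vti1b, close relatives in sequence, also lay on opposite sides. Vti1a, of the trans-Golgi network, had -0.46, -0.80 and -0.013 on replicates 2, 3 and 4, with -0.31 on replicate 1. Its mean of -0.42 ± 0.39 (SD, n = 3) had an unadjusted p from limma of 0.0711. Vti1b, of late endosomes, had 0.089, 0.35 and 0.086, with 0.22 on replicate 1. Each gene kept its sign on all 4 arrays as deposited. Rabep1, the Rab5 effector rabaptin-5, had 0.013 ± 0.16.

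Of the 16 genes in neither arm, 5 had a positive and 11 a negative mean, with a median of -0.12. A single sign on replicates 2 to 4 was seen for 6 of them (37.5%, against 33.5% of all probes), 1 positive and 5 negative, and in the 5 negative ones replicate 1 as deposited was positive. Besides Esyt1 these were Sec61a1, Rabac1, Vps72 and Rab19. Sec61a1, the pore of the channel into the endoplasmic reticulum, had -0.46, -0.34 and -0.046, and Sec61g, its small gamma subunit, had 0.070, 0.65 and -0.19. Sec11a, of the signal peptidase, and Sec61a2 had means of -0.077 ± 0.19 and 0.052 ± 0.29 (SD, n = 3 each).

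Rabac1, a membrane receptor for Rabs released from GDI, had -0.42, -0.30 and -0.086 on replicates 2, 3 and 4, with 0.11 on replicate 1. Gdi2, the GDP dissociation inhibitor that extracts Rabs from membranes, had 0.11, 0.22 and 0.26, with 0.43 on replicate 1. The means of these partners in Rab recycling were -0.27 ± 0.17 and 0.20 ± 0.078 (SD, n = 3 each), with unadjusted p values from limma of 0.122 and 0.207. Among other Rabs, Rab18 of lipid droplets had -0.17 ± 0.19, Rab20 had -0.16 ± 0.22, Rab19 had -0.14 ± 0.16, and Rab24, linked to autophagy, had -0.13 ± 0.26. Rab23, an inhibitor of Hedgehog signalling, had 0.49, -0.74 and 0.31. The Arf-like proteins Arl3, which delivers lipid-anchored proteins to cilia, and Arl2, which acts in tubulin folding, had 0.24 ± 0.22 and -0.062 ± 0.12. The symbol pattern also took in 2 genes outside trafficking. Vps72, a subunit of chromatin-remodelling complexes, had -0.44, -0.78 and -0.075 with an unadjusted p from limma of 0.0572, and Sec1, a fucosyltransferase, had -0.11 ± 0.19.

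Replicate 1 offers a look at the genes with a single sign that the tests did not use. Of the 28 genes with a single sign on replicates 2 to 4, 19 had the same sign on replicate 1 as deposited and 9 the opposite sign, so that 67.9% lay on the same side. Of 1912 such probes over the whole array, 46.1% did. If the numerator was the same channel on every array, the opposite sign on replicate 1 would stand for the same change. If it was the same genotype on every array, the same sign would. Both readings are given because the numerator is unknown. Of the 4 genes at an unadjusted p under 0.05, Esyt1, Rab17 and Ap4m1 were opposite on replicate 1 and Vps29 was on the same side. The arrays share the control pool.

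**Figure D4:**
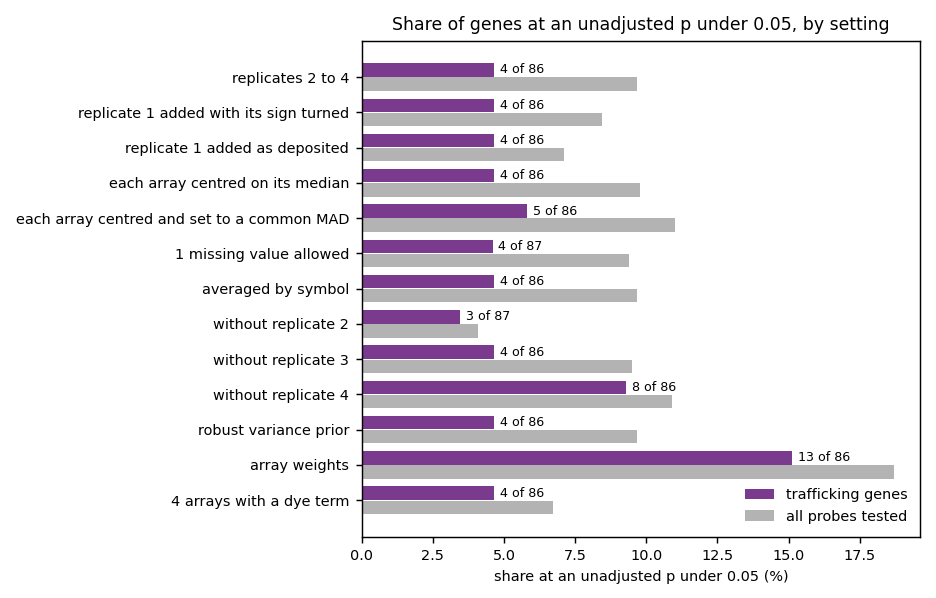
Share of genes at an unadjusted p under 0.05 in limma (horizontal axis, in percent) among the trafficking genes (purple, with counts) and all probes tested (grey), for replicates 2 to 4 and for each other setting. The purple bar is shorter than the grey bar in every setting plotted, with 4 of 86 genes in most settings, 8 of 86 without replicate 4 and 13 of 86 with array weights.

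Other genes of these pathways, taken from lists of 185 genes that the symbol pattern does not reach, were measured for 57. None passed the adjusted threshold in limma, and at an unadjusted p under 0.05 stood 4 positive and 3 negative genes, or 12.3%, against 9.67% of all probes. Of 14 genes of constitutive secretion, 4 were positive and 10 negative with a median of -0.064, and 0 had an unadjusted p under 0.05. Cog1, of a Golgi tethering complex, had -0.31 ± 0.19, and Surf4, a cargo receptor of the endoplasmic reticulum, had -0.28 ± 0.14 (SD, n = 3 each). The median of this list was thus on the other side of 0 from that of the secretion genes chosen by symbol.

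Of 29 further genes of endosomal sorting, 19 were positive and 10 negative, with a median of 0.060. Stam and Hgs, the partners of ESCRT-0 that bind ubiquitinated cargo on endosomes, lay on opposite sides. Stam had 0.31, 0.49 and 0.52 on replicates 2, 3 and 4, with 0.17 on replicate 1, and an unadjusted p from limma of 0.0226. Hgs had -0.70, -0.69 and -0.075, with -0.076 on replicate 1, and an unadjusted p from limma of 0.0390. Epn1, the endocytic adaptor epsin 1, had -0.65, -1.28 and -0.19, with -0.94 on replicate 1, and was negative on all 4 arrays as deposited.

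Of 14 regulators of Rab and Arf proteins, 8 were positive and 6 negative, and 4 (28.6%) had an unadjusted p under 0.05, against 9.67% of all probes. Chm, the escort protein that presents new Rabs for lipid attachment, had 1.00, 0.76 and 0.39 on replicates 2, 3 and 4, with 0.070 on replicate 1. Git2, an Arf GTPase-activating protein, and Evi5, a Rab11-binding protein of the TBC family, had means of 0.49 ± 0.13 and 0.46 ± 0.10 (SD, n = 3 each). Tbc1d1, a Rab GTPase-activating protein of glucose transporter traffic, had -0.40 ± 0.12. Their adjusted p values in limma lay between 0.454 and 0.481.

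**Figure D5:**
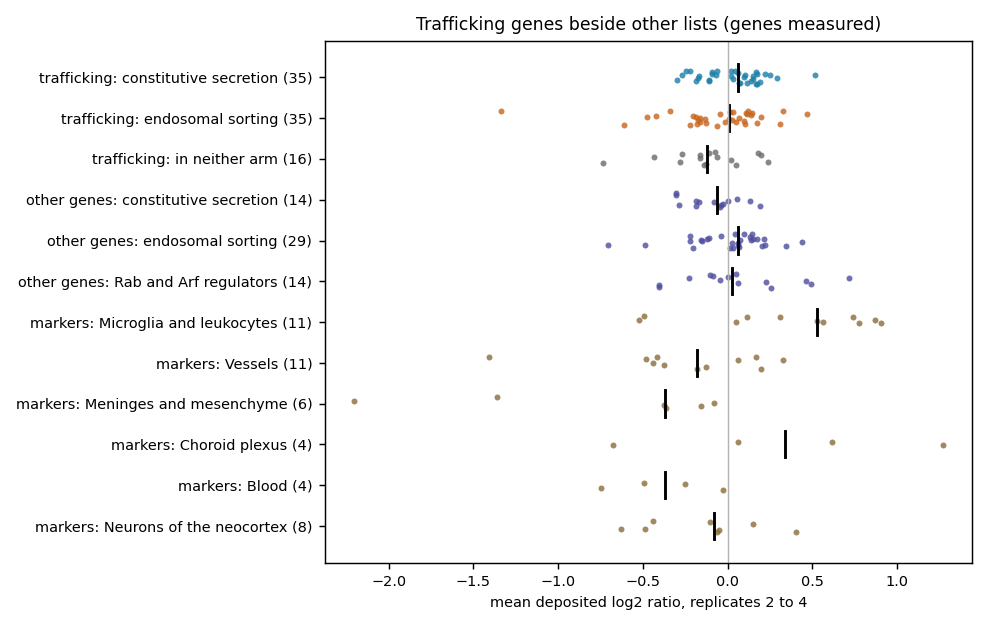
Mean deposited log2 ratio of replicates 2 to 4 (horizontal axis) for each measured gene of the trafficking groups, of other genes of the same pathways and of marker lists of cell types, with medians as black bars and the number of genes in parentheses. The medians of the trafficking arms, 0.062 for constitutive secretion and 0.010 for endosomal sorting, lie nearer to 0 than those of microglia and leukocytes at 0.53, meninges at -0.37 and blood at -0.37.

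The 6 lists of cell type markers other than epithelium had medians further from 0 than both trafficking arms. Of 11 measured markers of microglia and leukocytes 9 were positive, with a median of 0.53, and of 11 vessel markers 7 were negative, with a median of -0.18. All 6 markers of meninges and mesenchyme and all 4 of blood were negative, with a median of -0.37 each. Choroid plexus markers had 3 positive and 1 negative mean with a median of 0.34. These 4 genes spread widely, with Cldn2 at 1.27, Kl at 0.62, Otx2 at 0.064 and Ttr at -0.68. Of 8 markers of neocortical neurons 6 were negative, with a median of -0.083. Their part in the values of the trafficking genes was not tested.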

How the data were processed

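The authors deposited a single processed log2 ratio per spot and array (base 2 is assumed), with 0 unused columns of values. The sources used here do not give the background correction, the normalization, the log base or the numerator. Of 6856 probes, 6269 had a single symbol in the platform annotation. Probe coordinates are not printed, as the probes come with no genome build. Mean log ratios of replicates 2 to 4 were tested against 0 in R 4.3.3 with limma 3.58.1 (lmFit, eBayes), two-sided, over 5720 probes with a value on all 3 arrays, and adjusted by Benjamini-Hochberg over all of them, with a threshold of 0.05. The number of arrays limits the precision. The steps were tested on simulated data. The simulation gave the arrays independent errors of equal spread and no shared control pool, unlike these data, so it checks the steps only.

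The genes and lists were chosen with earlier results of these data known, so counts and medians over lists carry no test. Arms follow known functions. Vps72, a chromatin protein, and Sec1, an enzyme, were placed in neither arm. Rab3 symbols were excluded as written in the rule, which also drops Rab33a, Rab33b and Rab37. Named genes are up to 10 per sign with the smallest p and a single sign, up to 4 per class by p, the 5 with the widest range, those lacking a value, and up to 3 per pathway list and sign. Genes named beyond this rule were chosen after their values were seen. Other settings tried were replicate 1 added with either sign, a term for dye, centring, a common scale, a missing value, averaging by symbol, a robust prior, array weights, each array left out, an adjusted p of 0.1, Rab33a, Rab33b and Rab37 added, means for medians and other arm borders. The name of the deleted gene and its values are not reported here.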

Additional observations from a re-analysis of the deposited data

Results flagged for a closer look

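Among the 86 trafficking genes with 4 values, 4 had an array whose gap to the nearest other value exceeded Dixon's critical share of their range, which is 4.65% of them, against 5.33% of 5687 probes. Chance gives about 1 in 20, so that the number of such genes is no higher than either. Replicate 1 entered as deposited, and the flags can depend on its sign. The screen was not repeated with replicate 1 turned. Rab2a, a GTPase between endoplasmic reticulum and Golgi, had -0.17 on replicate 3, while its other arrays lay between 0.16 and 0.20. Ap1b1, the beta subunit of AP-1, had -0.51 on replicate 3, with the others between -0.021 and 0.071. Vps26c, of retriever, had 0.29 on replicate 3, with the others between 0.035 and 0.066. Rab11a, of recycling endosomes, had 0.63 on replicate 1 as deposited, with the others between 0.058 and 0.14.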

How the results depend on the processing

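The number of trafficking genes past the adjusted threshold was 0 in each of 13 other settings. The number at an unadjusted p under 0.05 in limma, 4, stayed within 1.5 times in 11 of 13. It was 13 with array weights (6 positive and 7 negative), which were 2.53, 0.478 and 0.827 for replicates 2, 3 and 4. Leaving out an array gave 3 to 8, with 8 without replicate 4 (1 positive and 7 negative). The cause was not tested. The 4 leading genes were all among the 8 and among the 13. These settings reuse the arrays that picked the 4 genes, so such overlap is no separate evidence for them. In 12 settings Rab17 kept an unadjusted p under 0.05 in limma in each (means from -1.67 to -0.80). Esyt1 and Ap4m1 did so in 11 each and Vps29 in 8, and none changed sign in these settings. Their adjusted p in limma ranged from 0.130 to 0.970 over these settings. The dye term was fitted with replicate 1 turned only. A dye term with replicate 1 as deposited was not fitted. Its estimate would be the midpoint between replicate 1 as deposited and the mean of replicates 2 to 4. For Esyt1 these were 0.97 and -0.73, so that its sign would turn positive. For Ap4m1 they were 0.55 and -0.61, which leaves a value near 0. Rab17 would stay negative (0.27 and -1.34) and Vps29 positive (0.098 and 0.47). Vps29 missed the mark with replicate 1 turned (unadjusted p from limma of 0.0733), with a dye term (0.259), and without replicate 2 or 3. With replicate 1 turned, Golga3 took its place among the 4, and with replicate 1 as deposited the 4 were Arf5, Rab17, Vps29 and Vti1a.

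The median of the trafficking genes ranged from -0.044 to 0.026 over 11 settings, so that its sign was not settled, and each value lay within the SD between arrays of 0.094. The difference between the arms ranged from -0.0085 to 0.10 over 12 settings, with the negative value without replicate 4. With Rab33a, Rab33b and Rab37 added, 5 of 89 genes had an unadjusted p under 0.05 in limma, a lower share than the 9.67% of all probes. The added one was Rab33a, at 0.40 ± 0.17 (SD, n = 3). No paired analysis was possible because the arrays form a single group. Signal over background is unknown, since intensities were not used here.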
